A study of Mus musculus with 14 samples.

Results

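The 10 genes described here carry retinoic acid, the active derivative of vitamin A, from its synthesis to its receptors: the retinol transporter Stra6, the dehydrogenases Aldh1a1 and Aldh1a2, the binding proteins Crabp1 and Crabp2, the hydroxylases Cyp26a1 and Cyp26b1, and the nuclear receptors Rara, Rarb and Rarg. They were chosen by name for their place in the pathway, with earlier results of these data known. All 10 were present among the 24984 gene symbols of each of 2 count tables. Bulk RNA sequencing had been done on spermatogonia positive for the receptor c-KIT, which marks male germ cells that differentiate on their way to meiosis, sorted by flow cytometry from testes of C57BL/6J mice. The study compared mice with altered Cbx2, a subunit of the Polycomb repressive complex PRC1, with their own controls.

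In the deletion experiment, 2 deleted libraries came from Rosa26-CreERT2; Cbx2 Flox/Δ mice that had received 3 intraperitoneal injections of 200 µL of tamoxifen at 20 mg/mL. The 2 control libraries came from Rosa26-CreERT2; Cbx2 Flox/+ mice that had received corn oil alone. All 4 carried the tamoxifen-inducible recombinase at Rosa26, a locus active in most cell types, so recombination was not restricted to germ cells. Genotype and injection changed together and cannot be told apart. In the 23KRA experiment, 5 homozygous libraries came from Cbx2 23KRA/23KRA mice, which carry alanine in place of lysines and arginines of the Cbx2 CaPS domain, and 5 wild-type libraries came from Cbx2 +/+ mice, none of them injected. The age of the mice is not given in the sources used here. The animals named in the labels equal the libraries in number, and each library was taken as 1 animal.

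In the textbook account, retinol is oxidized to retinaldehyde and then, by the ALDH1A enzymes, to retinoic acid, which CYP26 enzymes break down. CRABP proteins bind retinoic acid in the cytoplasm, and the receptors, paired with a retinoid X receptor (RXR), bind direct repeats of a short half-site in DNA and recruit corepressors or coactivators. In the mouse testis, retinoic acid starts the differentiation of spermatogonia and later the entry into meiosis, and Stra8 and Kit are among its known responsive genes. Sertoli cells, the somatic cells of the seminiferous tubule, express Aldh1a1, while Aldh1a2 is an enzyme of later germ cells.

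Rarb and Cyp26a1 are the classical target genes of the receptors among the 10, and their promoters are shown because each held the type of repeat that the receptors bind. RefSeq promoter windows of GRCm38.p6, from 250 bases before to 50 after a transcript start, were present for 9 of the 10 genes, in 17 windows. Crabp2 had no entry. The repeats searched were direct repeats of any of the 4 half-sites AGGTCA, its variant GGGTCA, the form AGTTCA and likewise GGTTCA, on either strand, with a spacer of 5 or of 2 bases. Capitals mark the half-sites, and both stretches of 61 bases are printed 5′ to 3′ on the strand of the gene, Rarb from chr14:16575491-16575551 (minus strand) and Cyp26a1 from chr19:37697754-37697814 (plus strand):
Rarb: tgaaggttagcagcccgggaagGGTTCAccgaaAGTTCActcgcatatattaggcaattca
Cyp26a1: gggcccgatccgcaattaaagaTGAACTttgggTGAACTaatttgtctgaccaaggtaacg
A repeat with a spacer of 5 bases was found in these 2 of the 17 windows, and in 32 of all 32851 windows, or 0.0974%. It began 53 bases upstream of the start in Rarb and 32 bases upstream in Cyp26a1, where it lay on the opposite strand. A spacer of 2 bases occurred in 88 windows, or 0.268%, and in 0 of the 17. A match describes the letters of a window and is not a measured binding site.

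Each library of the deletion experiment held 28169990 to 31166500 counted reads and 19822 to 19976 detected genes. The 23KRA libraries held 14562564 to 19814511 reads and 14958 to 17330 genes. The 2 experiments were made with different kits, so levels are set side by side and were not compared between them. Cbx2 stood at 78.5 and 86.5 CPM (a gene's reads relative to a library size scaled by TMM factors) in deleted libraries, against 93.9 and 97.7 CPM in control libraries, a log2 fold change of -0.21 with a standard error of 0.12 and an adjusted p of 0.971 (edgeR). It ranged from 48.8 to 89.7 CPM in homozygous and from 53.2 to 83.6 CPM in wild-type libraries. Which exons the deletion removes is not given in the sources used here, so reads over the whole gene test the labels only in part. All 7 markers of differentiating spermatogonia were detected, with a summed level of 1379 and 1377 CPM in deleted and 1319 and 1360 CPM in control libraries, and of 1127 to 1359 CPM in homozygous and 1298 to 1437 CPM in wild-type libraries. Markers of other cells were present too. Summed spermatid markers reached 2768 and 3193 CPM in deleted and 3208 and 3512 CPM in control libraries, and 251 to 1149 CPM in homozygous and 304 to 1141 CPM in wild-type libraries. Summed Sertoli markers were 161 and 150 CPM in deleted and 154 and 158 CPM in control libraries, and 42.7 to 83.2 CPM in homozygous and 50.1 to 77.7 CPM in wild-type libraries, where the Sertoli gene Fshr was at 0 in all 10.

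None of the 10 genes passed the test for a change in either mutant. In the deletion experiment 0 of the 10 had an adjusted p under 0.05, where 2 of all 16725 genes tested did, a share of 0.0120%. With the 23KRA allele 0 of the 9 genes tested passed, where 0 of 14208 did, a share of 0%. At an unadjusted p under 0.05 the counts were also 0 of 10 and 0 of 9, against 4.74% of all genes tested for the deletion and 3.04% of those tested for 23KRA. With 1 library left out the count reached 1 in each experiment, for Rarg without deleted replicate 2 and for Rara without homozygous replicate 2. Their adjusted p values in those fits were 0.406 and 1.000 (edgeR). Stra6 was too low to be tested in the 23KRA experiment. The median log2 fold change was 0.040 over the 10 genes in the deletion, with 6 above and 4 below 0, and -0.0044 over all genes. It was -0.037 over the 9 genes tested in the 23KRA experiment, with 3 above and 6 below 0, and 0.0034 over all genes. In bulk samples, fewer cells of a type and less RNA per cell cannot be told apart, and this holds for every level given here.

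**Figure D1:**
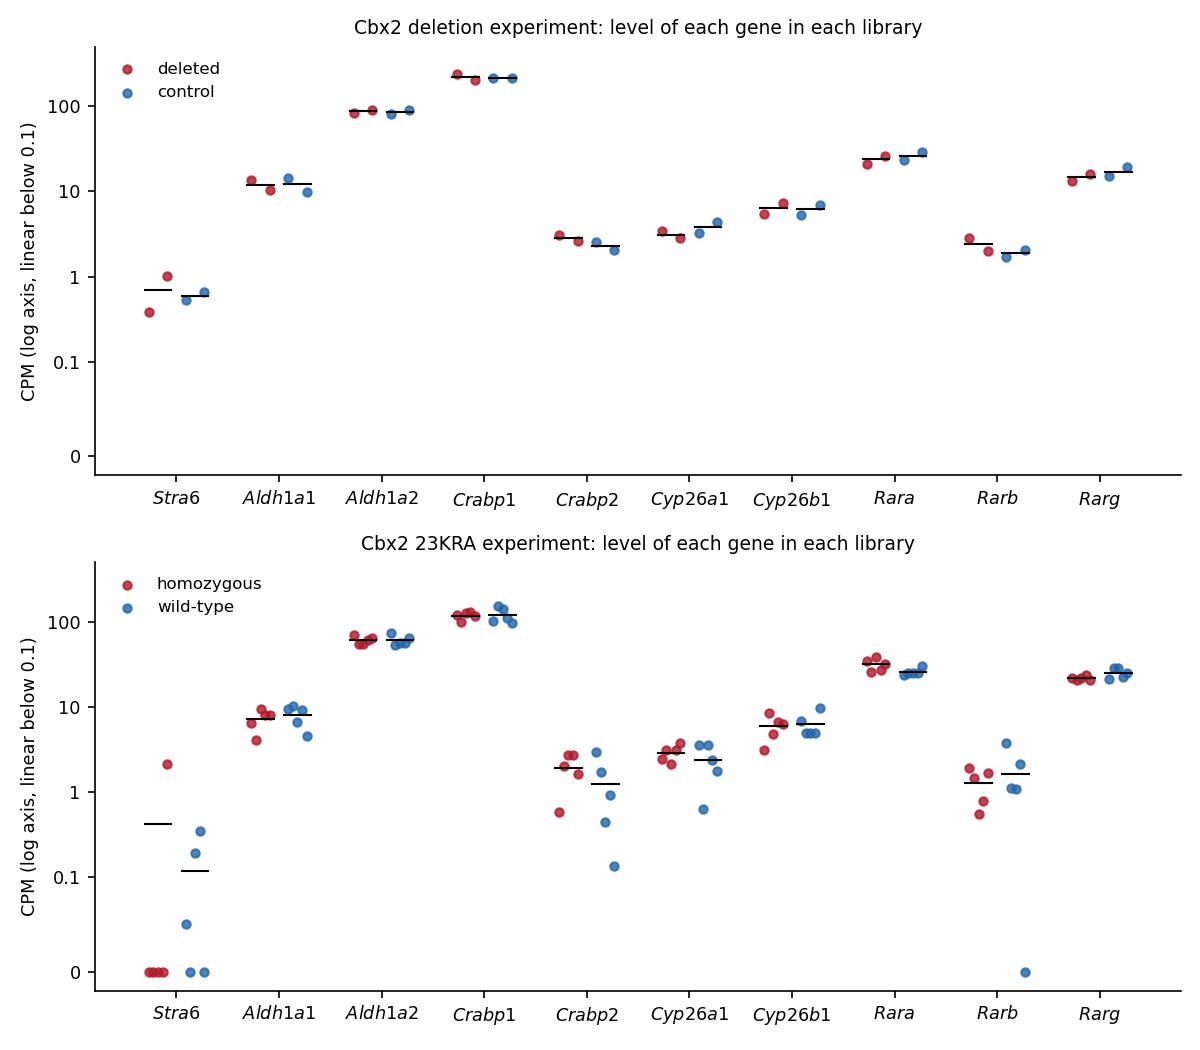
CPM of the 10 genes in each library (vertical axis, log scale, linear below 0.1), with deleted or homozygous libraries in red to the left of control or wild-type libraries in blue and a black bar at each mean. Crabp1 and Aldh1a2 stand highest in both experiments, and the points of mutant and control libraries overlap for every gene except Crabp2 in the deletion.

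The order of the genes by level was much the same in all 4 groups when CPM was divided by annotated exon length. Crabp1 was highest, at 274 ± 33.9 CPM per kb in deleted and 264 ± 0.119 CPM per kb in control libraries (SD, n = 2 each), and at 147 ± 13.6 CPM per kb in homozygous and 151 ± 30.2 CPM per kb in wild-type libraries (SD, n = 5 each). Aldh1a2 was second, at 38.4 ± 1.90 CPM per kb in deleted and 37.8 ± 2.48 CPM per kb in control libraries, and at 26.8 ± 2.88 CPM per kb in homozygous and 26.8 ± 3.73 CPM per kb in wild-type libraries. Neither overlapped the gene next to it in the order in any group. Rara and Rarg followed, and then Aldh1a1, Crabp2, Cyp26a1 and Cyp26b1, a set of 4 whose places changed between groups. In the 23KRA experiment the ranges of neighbours among these 4 overlapped, so their order was not resolved. In the deletion Aldh1a1 overlapped Crabp2 in deleted libraries. In control libraries Aldh1a1 overlapped Cyp26a1, which overlapped Crabp2. With n = 2 per group, the order of these 3 genes was not resolved there either. The place of Aldh1a1 below Rarg depends on the length used. The exons of Aldh1a1 sum to 4937 bases and its longest transcript has 2358 bases, against 4261 and 2953 bases for Rarg. By the longest transcript, the ranges of these genes would overlap in both deletion groups. Rarb and Stra6 closed the order everywhere, at 0.459 and 0.120 CPM per kb in deleted libraries and 0.306 and 0.0202 CPM per kb in wild-type libraries.

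**Figure D2:**
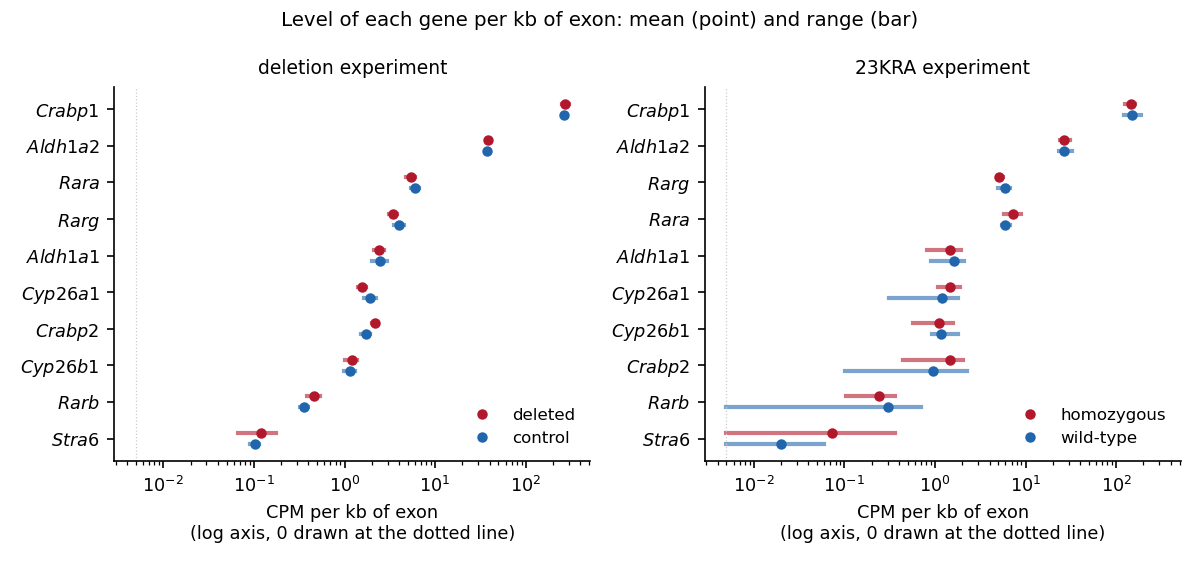
Level per kb of exon (horizontal axis, log scale) of each gene, with genes ordered down the page by their mean in control or wild-type libraries. Points are means and bars run from the lowest to the highest library, n = 2 per group on the left and 5 per group on the right. Crabp1 and Aldh1a2 stand clear of the other 8 genes, and the bars of the low genes are long in the 23KRA experiment.

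Stra6 (chr9:58063788-58153996, GRCm38) encodes the cell surface receptor that takes up retinol from its carrier in blood. Its level was 0.387 and 1.01 CPM in deleted libraries, against 0.531 and 0.667 CPM in control libraries, from 11 to 29 reads each. The deleted libraries lay on both sides of the controls, with a log2 fold change of 0.22 and a 95% interval of -0.86 to 1.29. Among the 23KRA libraries Stra6 had 0, 0, 0, 0 and 37 reads in homozygous libraries 1 to 5, against 1, 0, 3, 6 and 0 reads in wild-type libraries 1 to 5. A count of 0 allows up to 0.148 to 0.208 CPM in these libraries, taking 3 reads as the limit and counting error only. The 37 reads of homozygous replicate 5, or 2.12 CPM, were above this limit. That library's summed Sertoli markers were at 53.4 CPM, inside the range of the other homozygous libraries. Its summed markers of spermatids, at 1149 CPM, and of meiotic spermatocytes, at 1992 CPM, were the highest of the homozygous libraries. Its summed markers of differentiating spermatogonia, at 1127 CPM, were the lowest. Wild-type replicate 5 had 1141 CPM of summed spermatid markers and 0 Stra6 reads. Wild-type replicate 4 had 1998 CPM of summed meiotic spermatocyte markers and 6 Stra6 reads. The part of any of these cell types in the Stra6 level of homozygous replicate 5 was not tested.

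Aldh1a2 (chr9:71215789-71296243), the retinaldehyde dehydrogenase of the germ line, was the higher of the 2 synthetic enzymes. It had 83.9 and 90.0 CPM in deleted libraries, against 81.5 and 89.5 CPM in control libraries, which overlapped. The log2 fold change was 0.02 ± 0.12 (SE), with a 95% interval of 0.862 to 1.20 fold. Homozygous libraries had 70.2, 54.8, 54.6, 60.1 and 63.4 CPM, against 73.6, 53.0, 56.4, 55.8 and 64.8 CPM in wild-type libraries. These 10 values interleaved, and the log2 fold change was -0.003 ± 0.12 (SE), with an interval of 0.836 to 1.19 fold. Summed markers of meiotic spermatocytes, in which Aldh1a2 is known to be expressed, were 3783 to 3949 CPM in deleted and 3732 to 3870 CPM in control libraries, and 1585 to 1992 CPM in homozygous and 1667 to 1998 CPM in wild-type libraries. Their part in the level of Aldh1a2 was not tested.

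Aldh1a1 (chr19:20492715-20643465), the Sertoli cell enzyme of the pair, had 13.6 and 10.3 CPM in deleted libraries, against 14.5 and 9.85 CPM in control libraries. The first library of each group was the higher and the ranges overlapped, with a log2 fold change of -0.03 ± 0.19 (SE). Between the 23KRA groups it averaged 7.21 ± 2.08 CPM in homozygous and 8.01 ± 2.37 CPM in wild-type libraries (SD, n = 5 each). The fitted difference on the log2 scale was -0.15 ± 0.33 (SE). Of the summed CPM per kb of both enzymes, Aldh1a2 made up 94.1% in deleted and 93.8% in control libraries, and 94.8% in homozygous and 94.2% in wild-type libraries. The share was between 91.9% and 96.9% in each of the 14 libraries. It depends on the length used: the exons of Aldh1a1 sum to 4937 bases, while its longest transcript has 2358 bases. For Aldh1a2 both lengths are 2264 bases, so its share would be lower by the longest transcript.

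Crabp1 (chr9:54764748-54773110), a cytoplasmic carrier of retinoic acid found in spermatogonia, had 239 and 201 CPM in deleted libraries, against 212 CPM in both control libraries. One deleted library lay above and the other below the controls, and the log2 fold change was 0.06 ± 0.11 (SE), with an interval of 0.887 to 1.22 fold. Homozygous libraries had 118, 100.2, 125, 128 and 116 CPM, against 103, 152, 140, 112 and 97.1 CPM in wild-type libraries. The homozygous values lay inside the wild-type range, and the log2 fold change was -0.04 ± 0.12 (SE), with an interval of 0.821 to 1.16 fold. Of the summed CPM per kb of the 10 genes, Crabp1 alone held 83.1% in deleted and 82.6% in control libraries, and 76.5% in homozygous and 77.0% in wild-type libraries.

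Crabp2 (chr3:87948666-87953376), the related carrier known to pass retinoic acid to the receptors, stood far below Crabp1. It had 3.09 and 2.65 CPM in deleted libraries, against 2.55 and 2.03 CPM in control libraries. It was the 1 gene of the 10 whose deleted and control libraries did not overlap, and both deleted libraries were the higher. Among all genes tested 33.1% had no overlap there, so nothing is read from this count. The log2 fold change of 0.33 ± 0.27 (SE) had an adjusted p of 0.971 (edgeR). The exact two-sided permutation test gave p = 0.333, which is the smallest that 2 against 2 libraries can give. Among the 23KRA libraries Crabp2 had 0.590, 2.04, 2.69, 2.71 and 1.60 CPM in homozygous libraries, against 2.97, 1.73, 0.450, 0.924 and 0.134 CPM in wild-type libraries. The groups overlapped for all 9 genes tested there, where 0.711% of all genes tested had no overlap. The highest and the lowest Crabp2 library were both wild-type, and the log2 fold change was 0.62 ± 0.85 (SE). Its coefficient of variation over wild-type libraries was 91.6%, where counting error alone would give 21.4%.

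Cyp26a1 (chr19:37697798-37701536), which is itself induced by retinoic acid and removes it, had 3.41 and 2.82 CPM in deleted libraries, against 3.26 and 4.39 CPM in control libraries. The ranges overlapped, with a log2 fold change of -0.30 ± 0.25 (SE). Homozygous libraries had 2.46, 3.10, 2.14, 3.11 and 3.73 CPM, against 3.53, 0.624, 3.60, 2.37 and 1.74 CPM in wild-type libraries. The homozygous libraries lay close together and the wild-type libraries were spread on both sides of most of them, with a log2 fold change of 0.29 ± 0.60 (SE).

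Cyp26b1 (chr6:84571414-84593908), the hydroxylase that keeps retinoic acid low in the fetal testis, had 5.45 and 7.39 CPM in deleted libraries, against 5.31 and 6.99 CPM in control libraries. It averaged 5.88 ± 2.05 CPM in homozygous and 6.26 ± 2.06 CPM in wild-type libraries (SD, n = 5 each). Groups overlapped in both experiments, with a log2 fold change of 0.06 ± 0.21 (SE) on deletion and of -0.09 ± 0.37 (SE) with the 23KRA allele.

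Rara (chr11:98927818-98974942) encodes receptor alpha. It had 21.05 and 26.3 CPM in deleted libraries, against 23.4 and 29.0 CPM in control libraries, which overlapped, with a log2 fold change of -0.15 ± 0.15 (SE). Homozygous libraries had 34.3, 25.4, 38.8, 27.3 and 32.1 CPM, against 23.8, 24.7, 24.9, 24.9 and 29.8 CPM in wild-type libraries. All 5 homozygous libraries stood above 4 of the 5 wild-type libraries, and 3 of them above wild-type replicate 5, the highest. The means were 31.6 ± 5.41 CPM in homozygous and 25.6 ± 2.35 CPM in wild-type libraries (SD, n = 5 each). The log2 fold change of 0.30 ± 0.16 (SE) did not pass, with an adjusted p of 1.000 (edgeR) and an interval of 0.971 to 1.56 fold. Its unadjusted p was 0.082, and the exact two-sided permutation test of log2 CPM gave p = 0.0556, where 0.00794 is the smallest possible. Of the 9 genes tested there, Rara had the smallest p by both tests, and neither p was corrected for that choice.

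Rarg (chr15:102234938-102257517) encodes receptor gamma, which is known to act in spermatogonia. It had 13.1 and 16.1 CPM in deleted libraries, against 15.1 and 19.1 CPM in control libraries, which overlapped. The log2 fold change was -0.23 ± 0.16 (SE), with an adjusted p of 0.971 (edgeR). Homozygous libraries had 21.5, 20.9, 21.8, 23.9 and 20.8 CPM, against 21.3, 28.6, 28.8, 22.4 and 25.3 CPM in wild-type libraries. The homozygous libraries lay within a narrow band, with a mean of 21.8 ± 1.24 CPM, against 25.3 ± 3.48 CPM in wild-type libraries (SD, n = 5 each). The groups overlapped, and the log2 fold change of -0.21 ± 0.17 (SE) did not pass, with an adjusted p of 1.000 (edgeR) and an exact permutation p of 0.0714.

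Per kb of exon, Rara exceeded Rarg in 3 of the 4 groups without overlap of their ranges, while in wild-type libraries of the 23KRA experiment the ranges overlapped. This used the union of exons, 4365 bases for Rara and 4261 bases for Rarg. Their longest transcripts have 3384 and 2953 bases. By that length Rara would stand lower against Rarg in every library, and the ranges would overlap in homozygous libraries too. The ratio of Rara to Rarg per kb was 1.57 to 1.60 in deleted and 1.48 to 1.51 in control libraries. It was 1.11 to 1.73 with a mean of 1.42 in homozygous libraries, and 0.843 to 1.15 with a mean of 1.00 in wild-type libraries. This ratio was formed after the levels of both genes had been seen and is given as a description.

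**Figure D3:**
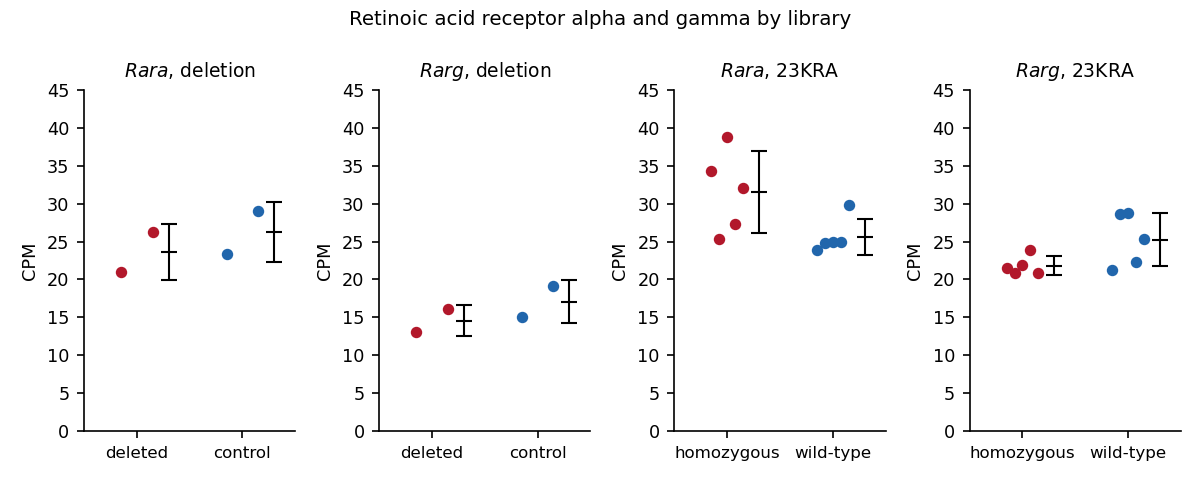
CPM of Rara and Rarg by library, with deleted or homozygous libraries in red and control or wild-type libraries in blue. Crosses beside the points are the mean ± SD, n = 2 per group in the deletion and 5 per group in 23KRA. In the 23KRA panels 4 wild-type libraries stand between 23.8 and 24.9 CPM for Rara, below all 5 homozygous libraries. Wild-type replicate 5, at 29.8 CPM, stands above homozygous replicates 2 and 4, so the groups overlap. For Rarg the 5 homozygous libraries stand between 20.8 and 23.9 CPM, where wild-type replicates 1 and 4 also lie.

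Rarb (chr14:16430839-16819156) encodes receptor beta and was the lowest of the receptors. It had 2.81 and 2.02 CPM in deleted libraries, against 1.70 and 2.07 CPM in control libraries, which overlapped, with a log2 fold change of 0.36 ± 0.30 (SE). Homozygous libraries had 1.92, 1.45, 0.551, 0.794 and 1.66 CPM, against 3.73, 1.11, 1.09, 2.14 and 0 CPM in wild-type libraries. The wild-type values lay on both sides of all homozygous values, with a log2 fold change of -0.34 ± 0.93 (SE). Exons of Rarb share 2020 bases, or 38.4% of their length, with Top2b and Gm48162 on the opposite strand. The strand setting of the counting is not given in the sources used here, so the count of Rarb is uncertain. No other gene of the 10 shared exon bases with another annotated gene.

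**Figure D4:**
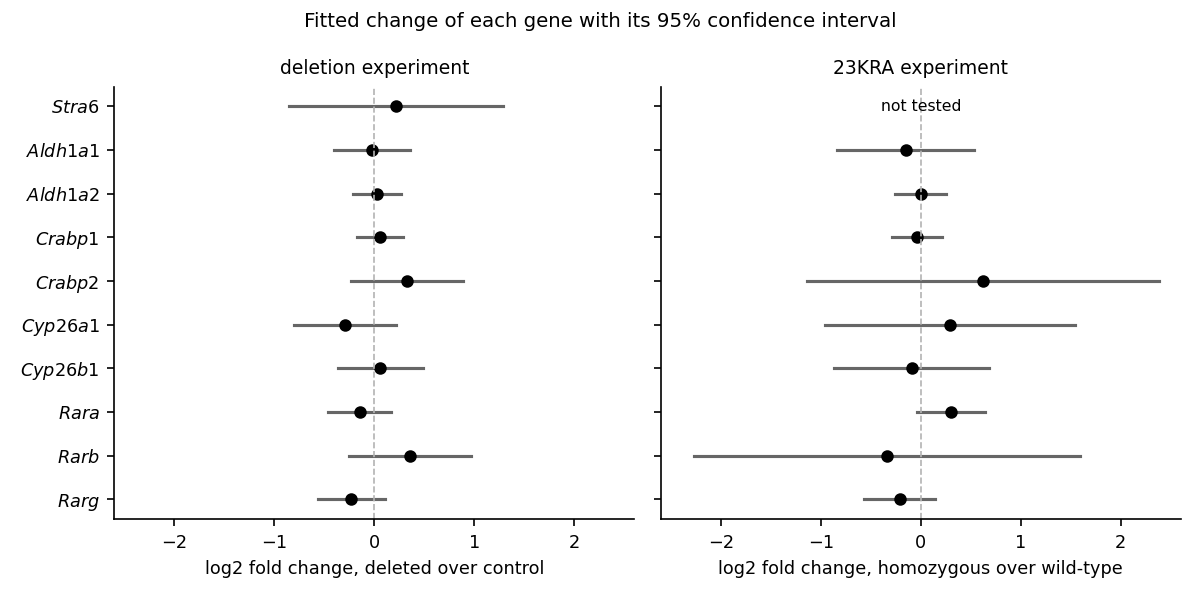
Fitted log2 fold change of each gene (points) with its 95% confidence interval (bars), deleted over control on the left and homozygous over wild-type on the right. All 19 intervals cross 0, and those of Crabp2 and Rarb in the 23KRA experiment are the widest.

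The 2 experiments share no libraries. Their estimates had the same sign for Aldh1a1, Crabp2 and Rarg and opposite signs for the other 6 genes tested in both. For Rara the estimate was -0.15 on deletion and 0.30 with the 23KRA allele, and the difference between the experiments was not tested. How tightly a level was known depended on the experiment: the common biological coefficient of variation was 0.0988 for deletion libraries and 0.393 for 23KRA libraries, over all genes. For the 4 genes above 10 CPM in the 23KRA experiment the fitted SE was 0.12 to 0.17, and for the other 5 tested it was 0.33 to 0.93.

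Genes that act before and after the 10 were followed in 4 further lists. Of 23 genes of retinol handling and other retinoid enzymes, 19 were tested in the deletion, and 0 passed, with 12 above and 7 below 0 and a median log2 fold change of 0.05. For the 23KRA allele 12 were tested and 0 passed, with 7 above and 5 below 0 and a median of 0.06. Adh5, the widespread alcohol dehydrogenase that also oxidizes formaldehyde conjugates, was highest by CPM, at 157 ± 24.1 CPM in deleted and 147 ± 11.9 CPM in control libraries (SD, n = 2 each). Rbp4, the retinol carrier of blood, had 77.5 ± 7.43 CPM in deleted and 79.1 ± 1.20 CPM in control libraries. The retinal reductase Rdh11 had 35.5 ± 0.499 CPM in deleted and 38.5 ± 1.395 CPM in control libraries. By the mean over both groups, these 3 genes were also the highest of the list in the 23KRA experiment, with Adh5 at 58.6 ± 4.62 CPM in homozygous and 60.0 ± 12.2 CPM in wild-type libraries (SD, n = 5 each), and their groups overlapped there.

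Adh1, an alcohol dehydrogenase that oxidizes retinol, was the 1 gene of that list with an unadjusted p under 0.05, where 4.74% of all genes tested had one. It had 2.04 and 1.26 CPM in deleted libraries, against 0.425 and 0.508 CPM in control libraries, without overlap, as had 33.1% of all genes tested. The log2 fold change was 1.80 ± 0.44 (SE), with an adjusted p of 0.485 (edgeR), and it did not pass. Without deleted replicate 2, it was the 1 gene of the list that passed, and 73 of all genes then passed. Summed markers of interstitial stroma moved with it, at 28.6 and 20.3 CPM in deleted and 12.1 and 14.4 CPM in control libraries. All 6 markers of that list that were tested had a log2 fold change above 0, with 1 of them called, and none of the 7 was at 0. Their part in the value of Adh1 was not tested. Adh1 had 0 reads in 8 of the 10 libraries of the 23KRA experiment. Of the 7 stroma markers, Lum and Tcf21 were at 0 in all 10 libraries there. The summed stroma markers were not at 0, with 12.7 ± 1.18 CPM in homozygous and 13.3 ± 4.92 CPM in wild-type libraries (SD, n = 5 each). A link between stroma and the level of Adh1 was not tested there.

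The RXR partners, with which the receptors bind DNA, were led by Rxrb and Rxra. Rxrb had 69.5 ± 5.11 CPM in deleted and 68.5 ± 2.77 CPM in control libraries, and 41.2 ± 10.2 CPM in homozygous and 34.4 ± 8.80 CPM in wild-type libraries. Rxra had 37.5 ± 4.72 CPM in deleted and 39.7 ± 1.24 CPM in control libraries, and 49.0 ± 9.97 CPM in homozygous and 52.6 ± 5.07 CPM in wild-type libraries. None of the 3 genes tested in the deletion passed, with 2 above and 1 below 0, and neither of the 2 tested in the 23KRA experiment did. Rxrg was below 1 CPM on average in all 4 groups.

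All 13 receptor coregulators on the list were tested in both experiments and 0 passed. In the deletion 2 were above and 11 below 0, with a median log2 fold change of -0.10. For the 23KRA allele 3 were above and 10 below 0, with a median of -0.03. Of all genes tested, 8524 of 16725 were below 0 in the deletion and 6985 of 14208 in the 23KRA experiment. A shared shift of the coregulators was not tested. The corepressor Ncor1 had 189 ± 4.29 CPM in deleted and 209 ± 9.61 CPM in control libraries, a log2 fold change of -0.15, and 523 ± 25.3 CPM in homozygous and 538 ± 30.0 CPM in wild-type libraries. The acetyltransferase coactivator Crebbp had 101 ± 20.7 CPM in deleted and 120.1 ± 19.7 CPM in control libraries, which overlapped, a log2 fold change of -0.25 ± 0.13 (SE) with an unadjusted p of 0.077 (edgeR). Its relative Ep300 had 54.03 ± 11.3 CPM in deleted and 65.6 ± 9.54 CPM in control libraries, which overlapped, a log2 fold change of -0.28 ± 0.14 (SE) with an unadjusted p of 0.057 (edgeR). Both had an adjusted p of 0.971 there. Crebbp and Ep300 had 536 ± 44.1 and 272 ± 15.01 CPM in homozygous libraries, against 548 ± 46.2 and 273 ± 36.5 CPM in wild-type libraries. The mediator subunit Med1 and the coactivator Ncoa3 had 136 ± 2.17 and 131 ± 25.7 CPM in deleted libraries, against 145 ± 3.68 and 138 ± 7.98 CPM in control libraries. In the 23KRA experiment 3 of the 13 had an unadjusted p under 0.05, where 3.04% of all genes tested did. The deacetylase Hdac3 had 64.7 ± 5.32 CPM in homozygous and 50.9 ± 4.57 CPM in wild-type libraries, without overlap. Among all genes tested 0.711% had no overlap there. The log2 fold change of Hdac3 was 0.35 ± 0.11 (SE), with an unadjusted p of 0.007 (edgeR). Gps2, a subunit of the same corepressor complexes, had a log2 fold change of -0.23 ± 0.090 (SE). Both had an adjusted p of 1.000 (edgeR).

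Of 16 retinoic acid responsive genes listed, Meiosin was not analysed here, 14 were tested on deletion and 11 with the 23KRA allele, and 0 passed in either. Cyp26a1 and Rarb are among them. The median log2 fold change was 0.05 in the deletion, with 8 above and 6 below 0, and -0.01 in the 23KRA experiment, with 5 above and 6 below 0. Stra8, the gatekeeper of meiosis, had 564 ± 45.1 CPM in deleted and 536 ± 41.2 CPM in control libraries, a log2 fold change of 0.07, and 666 ± 113 CPM in homozygous and 726 ± 64.9 CPM in wild-type libraries, a log2 fold change of -0.12. Kit, the receptor used in the sort, had 258 ± 27.9 CPM in homozygous and 254 ± 15.7 CPM in wild-type libraries. Sall4, a transcription factor of germ cells, had 83.6 ± 9.69 CPM in deleted and 82.0 ± 8.26 CPM in control libraries, and the antiproliferative gene Btg2 had 60.3 ± 3.45 CPM in deleted and 55.9 ± 0.636 CPM in control libraries. Rec8, the meiotic cohesin subunit, had 26.9 ± 6.91 CPM in deleted and 33.4 ± 4.07 CPM in control libraries, a log2 fold change of -0.31 with an unadjusted p of 0.056 (edgeR).

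**Figure D5:**
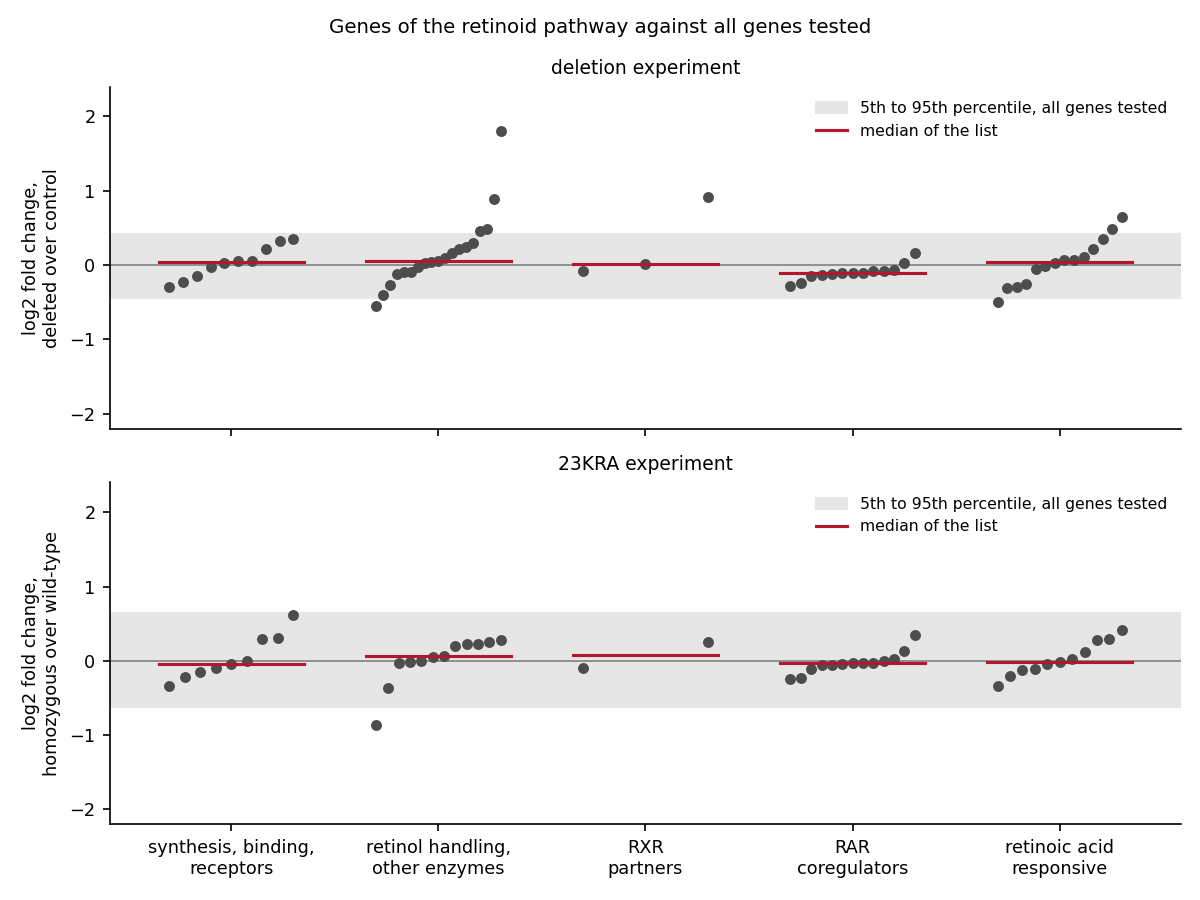
Log2 fold change of each tested gene in 5 lists (points, sorted within a list), deleted over control above and homozygous over wild-type below, with the list's median in red. The grey band runs from the 5th to the 95th percentile of all genes tested, -0.44 to 0.42 above and -0.62 to 0.64 below. The medians of all lists lie between -0.10 and 0.08, and Adh1 is the highest point in the deletion.

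Across the 10 libraries of the 23KRA experiment, genes that varied most like the 4 higher members were sought among 8934 genes with a mean of at least 10 CPM, by Pearson's r of log2 CPM after subtraction of the group means. The closest to Aldh1a2 were Wasl (0.944) and Sox30 (0.935), and the 3 closest to Crabp1 were Mks1 (0.939), Asxl3 (0.930) and Mettl25 (0.925). Rara varied most like Rtl6 (0.943), Btrc (0.938) and Xrcc1 (0.895), and Rarg most like Arl5a (0.917), Ciapin1 (0.910) and Tmem109 (0.888). The highest of 8934 values is high by selection: 1% of genes exceeded an r of 0.736 to 0.782 with each member. Among the 4 members themselves, Crabp1 and Rarg had an r of 0.768, and the other 5 pairs ranged from -0.494 to 0.146. The points share library, depth and preparation, so these values describe 10 libraries.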

How the data were processed

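The authors deposited 2 tables of raw, unnormalized counts of reads per gene, each with 24984 symbols. The submitters' processing notes name the build mm10, the counter featureCounts, Subread 1.5.0, the aligner STAR 2.5.3, Trim Galore 0.4.3 and SAMtools 1.4.1. Not given in the sources used here were the strand setting, the annotation and the handling of multiply mapped reads. Per the labels' protocols, deletion libraries used the SMART-Seq mRNA LP kit and 23KRA libraries the SMARTer Stranded Total RNA-Seq kit with ribosomal cDNA depletion. Both kinds have polyA RNA in the molecule field of the labels.

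Each table was analysed apart in R 4.3.3 with edgeR 4.0.16: filterByExpr with a minimum count of 10, TMM scaling and two-sided quasi-likelihood F tests, adjusted by the method of Benjamini and Hochberg over all 16725 or 14208 genes tested at 0.05. The steps were tested on simulated data. Permutation tests were exact and two-sided, on log2(CPM + 0.5). Positions and exon lengths are from GENCODE for GRCm38, and exon length is the union of a gene's exons. Amplified reads are not independent molecules, so limits on counts cover counting error only, and p-values measure the spread between libraries.

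Members and lists were chosen with earlier results of these data known. All 10 members are named. Of each further list, the genes with an unadjusted p under 0.05 and those of highest mean CPM, up to 4, are named, and some genes that these rules take are not reported here. Alternatives were DESeq2 1.42.0 size factors and test, upper quartile scaling, no filter, a 5 CPM filter, limma-voom (limma 3.58.1), a replicate block, other exon lengths, raw library totals and leaving out libraries.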

Additional observations from a re-analysis of the deposited data

Results flagged for a closer look

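Among 30 groups of 5 libraries examined in the 23KRA experiment, 4 held a library whose gap to its nearest neighbour exceeded 0.71 of the group's range (Dixon's 95% critical value). Chance gives about 1 in 20 for independent, normally distributed values. Levels near 0 need not be normal, and the sums contain genes also examined singly, so the count of 4 cannot be set against that rate. Rara in wild-type replicate 5 was at 29.8 CPM, with the next wild-type library at 24.9 CPM. Stra6 in homozygous replicate 5 was at 2.12 CPM, with the other homozygous libraries at 0. The summed level of the 10 genes in homozygous replicate 2 was 220.5 CPM, below the next library at 256 CPM. The sum of the genes of retinol handling and other enzymes in wild-type replicate 2 was 164 CPM, above the next library at 140.5 CPM. No explanation was tested.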

How the results depend on the processing

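None of the 10 genes passed at an adjusted p of 0.05 under any alternative run. Over 106 alternative values in the deletion the smallest adjusted p was 0.406, and over 159 in the 23KRA experiment it was 0.788. The number of all genes called in the deletion was 2 in the main analysis, 8 with no filter, and 1 each with a 5 CPM filter, DESeq2 and limma-voom. It was 2 to 73 with 1 library left out, with 73 without deleted replicate 2 and 11 without control replicate 1. The cause was not tested. A lone library left in a group was assumed to vary like the others. The number of retinol handling genes called ranged from 0 to 1 with 1 library left out. In the 23KRA experiment 0 genes were called with any 1 library left out.

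The replicate block raised the called genes to 62 in the deletion, including 1 retinol handling gene, and to 2 in the 23KRA experiment. Same-numbered libraries correlated at 0.413 in the deletion, where the labels state no pairing. With 2 libraries per group, deviations from the group mean mirror each other, so both same-numbered pairs give this 1 value. In the 23KRA experiment they correlated at 0.234, 0.433, -0.0429, 0.252 and 0.376, and libraries of 4 of the 5 numbers, all but replicate 3, correlated best with their own number, a hint from the data and not from the design. The labels state no pairing, so the values without the block are those reported, although only 1 pair lay below 0.1. The tests reported for the members thus take no account of anything that libraries of the same number share.

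Signs of uncalled values turned with 1 library left out in the deletion, with ranges of -0.28 to 0.29 for Aldh1a1, -0.0303 to 0.0932 for Aldh1a2, -0.18 to 0.27 for Cyp26b1, -0.0730 to 0.18 for Crabp1, -0.32 to 0.0156 for Rara and -0.63 to 0.75 for Stra6. In the 23KRA experiment the ranges were -0.0713 to 0.0770 for Aldh1a2, -0.26 to 0.12 for Cyp26b1, -0.11 to 0.0605 for Crabp1 and -0.66 to 0.23 for Rarb. There, limma-voom gave 0.0028 for Aldh1a2 and 0.46 for Rarb, the replicate block 0.00064 for Aldh1a2, and leaving out wild-type replicates 2 and 3 gave 0.18 for Crabp1. With the longest transcript as length, Crabp1 held 81.0% of the summed CPM per kb in the deletion, against 82.9%. With the 5 CPM filter, Crabp2, Cyp26a1, Rarb and Stra6 gave no value. Depth limits what can be said of Stra6, Rarb and Crabp2, which had fewer than 100 reads in each library.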

Other observations

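In the deletion experiment 7 of the 10 genes (Aldh1a1, Aldh1a2, Crabp2, Cyp26b1, Rara, Rarg and Stra6) differed in the same direction between libraries 1 and 2 in deleted and in control mice, although the labels do not say that a number marks a shared litter or day. The share of all genes that did so was not computed, so nothing is read from this count. Summed macrophage markers stood at 147 CPM in wild-type replicate 3, where the median of the wild-type libraries was 19.7 CPM, and at 17.4 to 38.4 CPM in homozygous libraries. Over the receptors, Rarb made up 5.05% of the summed level per kb in deleted and 3.45% in control libraries, and 1.95% in homozygous and 2.65% in wild-type libraries. Cyp26b1 made up 43.2% of the summed level per kb of Cyp26a1 and Cyp26b1 in deleted and 37.4% in control libraries, and 42.1% in homozygous and 52.2% in wild-type libraries, where it ranged from 33.8% to 74.8%. No explanation was tested.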
